A study of Mus musculus with 8 samples.

Results

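The NRF2 pathway was followed through 10 genes: Nfe2l2, which encodes the transcription factor NRF2, its inhibitor Keap1, and the target genes Nqo1, Hmox1, Gclc, Gclm, Srxn1, Txnrd1, G6pdx and Slc7a11. They were chosen by name, and every probe whose accession belongs to 1 of them was taken, which gave 11 probes for 10 of the 21368 genes named on the arrays. Of these 10 genes, 8 were tested, among 11072 tested genes in all. Slc7a11 was too dim, and Nqo1 lacked a usable spot on 2 arrays, where it was flagged as an outlier.

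Global mRNA of isolated mouse hepatocytes was measured on 8 single-colour Agilent arrays, to ask what the hepatocyte cannabinoid receptor CB1R, encoded by Cnr1, controls at rest. The 4 hCNR1+/+ arrays (hCNR1_WT, strain CNRO) and the 4 hCNR1-/- arrays (hCNR1_cKO, strain CNRO Alb-Cre) came from male mice aged 12 to 14 weeks on a standard diet, and no other treatment is named for them. The deletion was made with Cre recombinase driven by the albumin promoter, which is active in hepatocytes, and the strain names place Cre in the deleted group alone, so that Cre and the loss of Cnr1 cannot be told apart here. The single Cnr1 probe stood clear of the background in 0 of the 8 arrays, so the genotypes rest on the labels.

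NRF2 is a stress-responsive transcription factor. In resting cells KEAP1 binds it and directs it to degradation, and oxidants or electrophiles that modify KEAP1 let NRF2 accumulate, pair with small MAF proteins and bind antioxidant response elements in its target genes. In the liver this pathway is known for raising glutathione synthesis, thioredoxin recycling, NADPH supply, haem breakdown and the conjugation and export of toxic compounds.

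The core of the antioxidant response element, searched as TGACNNNGC on both strands, is the sequence that NRF2 and its partners recognise. It was looked for from 250 bases before to 50 bases after each RefSeq transcription start (GRCm38.p6), and 12.4% of 32851 such windows held it. The table had windows for 8 of the 10 genes, all but Hmox1 and Gclc, and 5 of these 8 genes held a match. The related letters TGAGNNNGC, which cannot match the same place and strand as the first motif, were in 17.6% of all windows and in 2 of the 8 genes, Srxn1 and Slc7a11. The 8 genes had 10 windows, 3 of them for Txnrd1, so counts of genes and shares of windows are unlike units. By window, 6 of the 10 held either motif, beside 27.8% of all windows. The stretches below belong to the thioredoxin and glutathione genes that the results turn on and to Nfe2l2 itself, each 5′ to 3′ on the strand of its gene, with the matched letters in capitals. Where the match is on the opposite strand, the capitals read as its reverse complement.
Txnrd1, 92 bases before 1 of its 3 starts, chr10:82859094-82859142, plus strand: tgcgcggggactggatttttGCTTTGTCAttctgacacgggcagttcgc
Gclm, 134 bases before its start, chr3:122245403-122245451, plus strand: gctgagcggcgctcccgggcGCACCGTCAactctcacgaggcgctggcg
Srxn1, 45 bases before its start, chr2:152105459-152105507, plus strand: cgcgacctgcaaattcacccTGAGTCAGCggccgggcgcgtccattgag
Nfe2l2, 240 bases before its start, chr2:75704875-75704913, minus strand: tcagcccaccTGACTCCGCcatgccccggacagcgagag
The capitals of Srxn1 are a match to TGAGNNNGC, and those of the other stretches are matches to TGACNNNGC. The TGACNNNGC match of Srxn1 lay 28 to 36 bases after its start and is not printed. A match describes the letters alone. G6pdx held TGACNNNGC 57 bases before its start, and the windows of Keap1 and Nqo1 held neither motif.

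Levels are given as log2 signal, which is the log2 of an array's spot intensity minus the 75th percentile of that array, so that a difference of 1 is a doubling. The level of a probe is compared between arrays only, never with another probe. The arrays differed in brightness, with 75th percentiles of 62.0 to 139 intensity units in hCNR1+/+ and of 79.4 to 124 in hCNR1-/- replicates 1 to 3, and 29.3 in hCNR1-/- replicate 4. On that replicate 28.6% of spots were well above background, against 35% to 42.3% on the other 7 arrays. It had the lowest value of all 8 arrays in 38.9% of tested genes and the highest in 21.3%. The results for the tested NRF2 pathway genes are therefore given with and without it. All 13 tested hepatocyte markers, such as Alb and Cps1, were well above background on all 8 arrays.

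**Figure D1:**
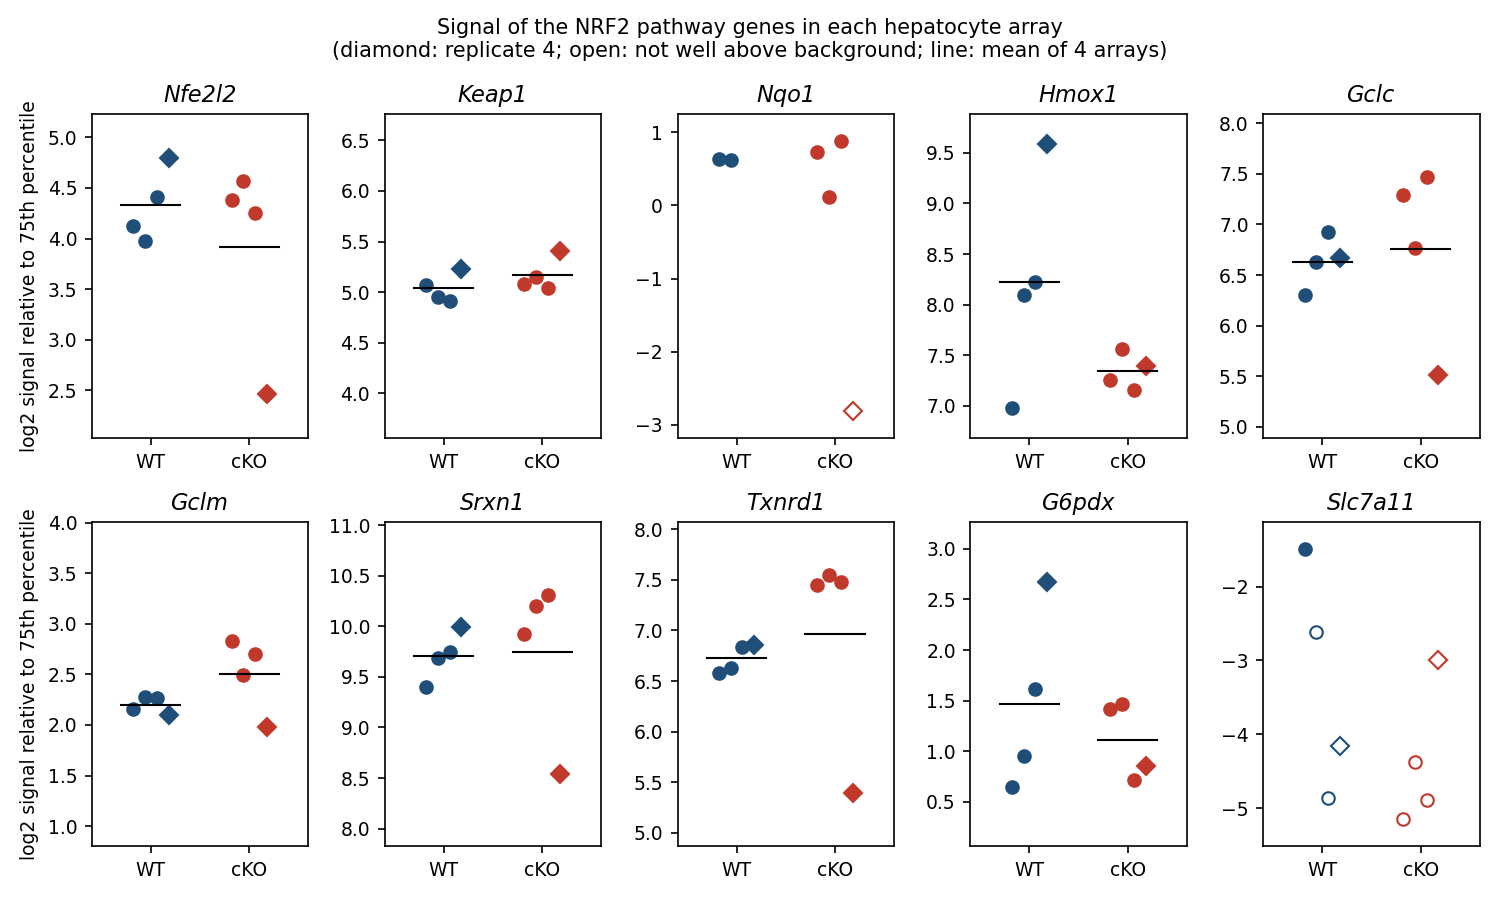
Log2 signal of the 10 NRF2 pathway genes in each array, with hCNR1+/+ (WT, blue) left of hCNR1-/- (cKO, red); points are arrays, diamonds are replicate 4, open points were not well above background, and lines are means of 4 arrays. In hCNR1-/- replicate 4 the signals of Nfe2l2, Gclc, Gclm, Srxn1 and Txnrd1 lie below those of the other 7 arrays, while Hmox1 in that replicate lies among the other hCNR1-/- arrays.

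With all 8 arrays, none of the 8 tested NRF2 pathway genes passed the test for a difference between the genotypes. In the limma fit, 0 of 8 had an adjusted p below 0.05 in either direction, where 1.30% of all tested genes were called lower and 2.94% higher in hCNR1-/- hepatocytes. The smallest unadjusted limma p among the 8 genes was 0.0864, in Hmox1. By the study's thresholds, a fold change above 2 with an unadjusted p below 0.05, 0 of 8 passed, beside 3.75% of all tested genes lower and 4.78% higher. In all 8 genes the values of the genotypes overlapped, whereas 5.04% of tested genes lay entirely lower and 12.7% entirely higher in hCNR1-/-. The median log2 fold change of the 8 genes was 0.08 (5 above 0, 3 below), against 0.08 over all tested genes, 56.6% of which lay above 0.

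The regulator Nfe2l2 had a log2 signal of 4.12, 3.98, 4.41 and 4.79 in hCNR1+/+ and of 4.38, 4.57, 4.25 and 2.47 in hCNR1-/- replicates 1 to 4. The first 3 hCNR1-/- values lay inside the hCNR1+/+ range and the last far below it. The log2 fold change was -0.41 (SE 0.44, n = 4 and 4, limma adjusted p = 0.624), and without hCNR1-/- replicate 4 it was 0.07 (SE 0.22, adjusted p = 0.858). Keap1, the adaptor that hands NRF2 to the ubiquitin ligase, ranged from 4.91 to 5.23 in hCNR1+/+ and from 5.04 to 5.41 in hCNR1-/-. Its log2 fold change of 0.13 (SE 0.19, adjusted p = 0.722) had a 95% interval of -0.30 to 0.55, the narrowest among the 8 genes. Without replicate 4 of hCNR1-/- the interval of Keap1 was -0.29 to 0.39.

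Txnrd1, the cytosolic thioredoxin reductase, had a log2 signal of 6.58, 6.63, 6.83 and 6.86 in hCNR1+/+ and of 7.45, 7.54, 7.48 and 5.39 in hCNR1-/-. Thus 3 hCNR1-/- arrays lay above every hCNR1+/+ array and the last lay below all of them. Over 8 arrays the log2 fold change was 0.24 (SE 0.45, adjusted p = 0.783). Without hCNR1-/- replicate 4, Txnrd1 was 1.70-fold higher in hCNR1-/- (95% interval 1.35 to 2.15, log2 fold change 0.77, SE 0.15, n = 4 and 3, limma adjusted p = 0.0198). The exact two-sided permutation p was 0.657 over the 70 assignments of all 8 arrays. Without hCNR1-/- replicate 4 it was 0.0286 over 35 assignments, the smallest that 4 against 3 arrays can give. That value needs groups that do not overlap, and 24.2% of all tested genes then lay entirely higher in hCNR1-/-. Its promoter stretch with the TGACNNNGC match is printed above.

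Gclm, the modifier subunit of glutamate-cysteine ligase, which makes the rate-limiting step of glutathione synthesis, had a log2 signal of 2.16, 2.27, 2.26 and 2.10 in hCNR1+/+ and of 2.83, 2.50, 2.70 and 1.98 in hCNR1-/-. The first 3 hCNR1-/- arrays again lay above all hCNR1+/+ arrays. The log2 fold change was 0.30 (SE 0.23, adjusted p = 0.475) with 8 arrays. It was 0.48 (SE 0.15, adjusted p = 0.0696) without hCNR1-/- replicate 4, where the groups no longer overlapped but the adjusted p did not pass 0.05.

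Gclc, the catalytic subunit of the same ligase, had a log2 signal of 6.30, 6.62, 6.92 and 6.66 in hCNR1+/+ and of 7.29, 6.77, 7.47 and 5.51 in hCNR1-/-. Srxn1, the sulfiredoxin that repairs over-oxidised peroxiredoxins, had 9.40, 9.68, 9.74 and 9.997 in hCNR1+/+ and 9.93, 10.20, 10.31 and 8.54 in hCNR1-/-. In both genes the groups overlapped with or without hCNR1-/- replicate 4. Gclc had a log2 fold change of 0.13 (SE 0.40, adjusted p = 0.879) over 8 arrays and of 0.54 (SE 0.22, adjusted p = 0.138) over 7. Srxn1 had 0.04 (SE 0.38, adjusted p = 0.965) and 0.44 (SE 0.19, adjusted p = 0.152).

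Without hCNR1-/- replicate 4, 1 of the 8 genes was called higher (Txnrd1) and 0 lower, which is 12.5% beside 10% of all 11049 tested genes called higher and 2.89% lower. By the fold threshold 0 of 8 passed, where 5.12% of tested genes passed as higher and 2.95% as lower. Txnrd1 and Gclm lay entirely higher in hCNR1-/-, and so did 24.2% of all tested genes, while 6.91% lay entirely lower. The median log2 fold change of the 8 genes was then 0.25, against 0.17 over all tested genes.

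**Figure D2:**
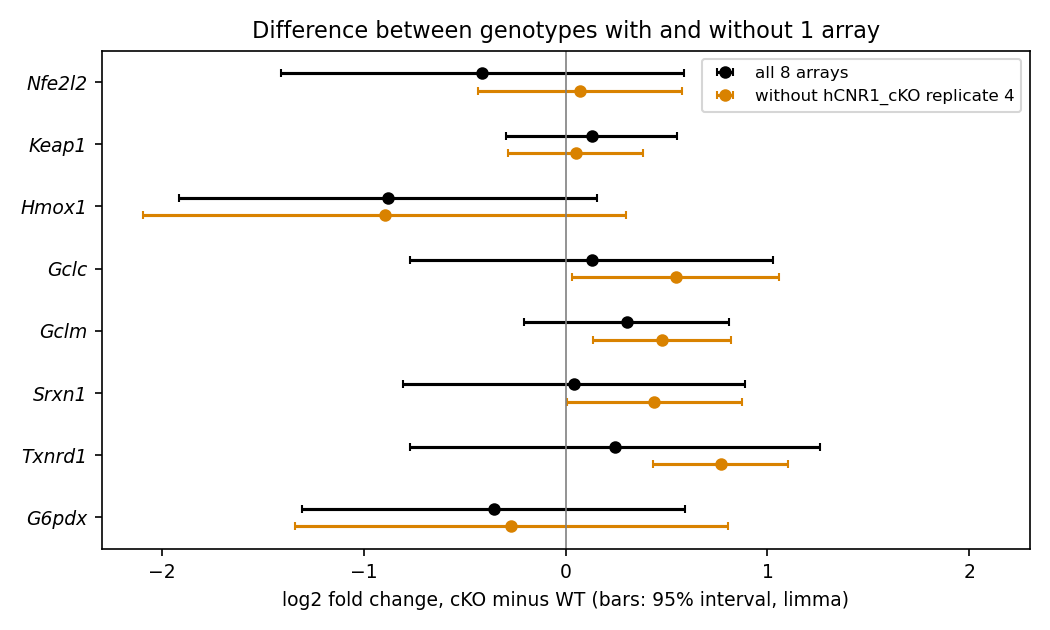
Log2 fold change, hCNR1-/- minus hCNR1+/+, of the 8 tested NRF2 pathway genes with its 95% interval from limma, over all 8 arrays (black) and without hCNR1-/- replicate 4 (orange). All black intervals cross 0, and Txnrd1 moves from 0.24 to 0.77 when that array is left out.

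The signal of hCNR1-/- replicate 4 lay far below the other hCNR1-/- arrays in Txnrd1, Nfe2l2, Gclc and Srxn1. Relative to the mean of hCNR1-/- replicates 1 to 3, replicate 4 was lower by a log2 difference of -2.10 in Txnrd1, -1.93 in Nfe2l2, -1.66 in Gclc and -1.60 in Srxn1. Its median difference over all tested genes was -0.33, and 4.10% of tested genes had a lower difference than Txnrd1 and 10.9% than Srxn1. In Gclm the difference was -0.70, with 36.9% of tested genes lower. Of the 8 tested NRF2 pathway genes, 5 had their lowest value of all 8 arrays in it, as did 38.9% of all tested genes. The mean log2 signal of the lymphocyte markers was 5.30 in that array and 3.98 to 4.18 in the other hCNR1-/- arrays, although only 3 of the 9 markers were tested. The part of array brightness or of other cells in these differences was not tested.

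**Figure D3:**
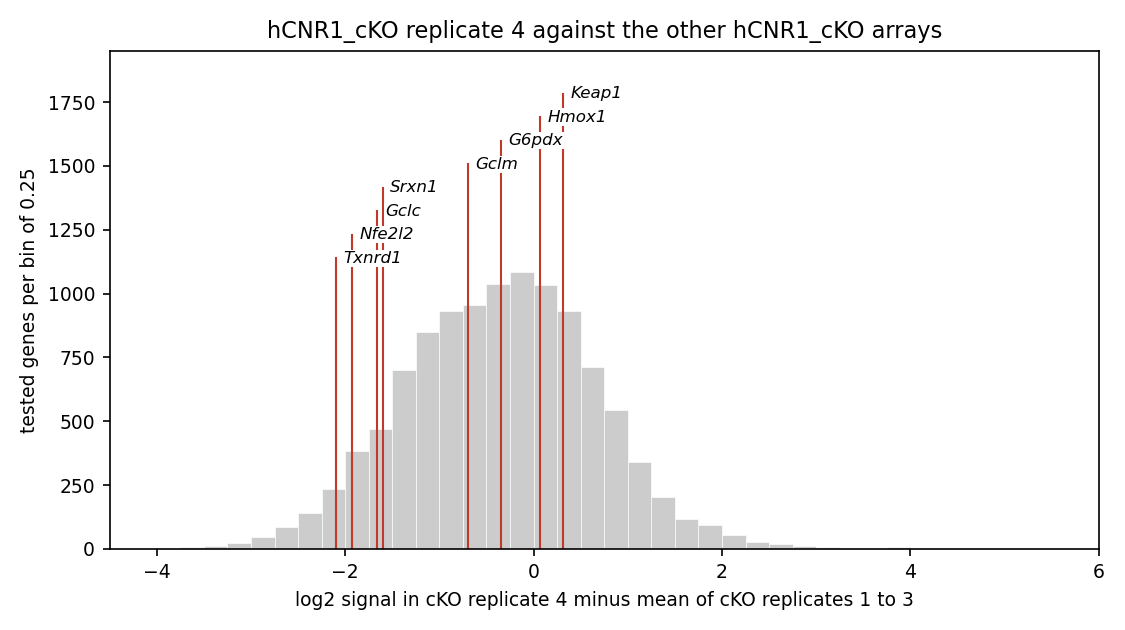
Histogram of the log2 signal in hCNR1-/- replicate 4 minus the mean of hCNR1-/- replicates 1 to 3 over 11072 tested genes in bins of 0.25 (grey), with the 8 NRF2 pathway genes as red lines. Txnrd1 at -2.10 and Nfe2l2 at -1.93 lie far to the left, and Keap1 at 0.32 and Hmox1 at 0.07 lie to the right of the median of -0.33.

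Hmox1, the haem oxygenase that opens the haem ring, showed the largest difference of the 8 genes over all 8 arrays. Its brighter probe had a log2 signal of 6.98, 8.10, 8.22 and 9.58 in hCNR1+/+ and of 7.26, 7.56, 7.15 and 7.39 in hCNR1-/-. The hCNR1-/- arrays lay close together, and the hCNR1+/+ arrays spread from below them to far above them. The log2 fold change was -0.88 (SE 0.46, 95% interval -1.92 to 0.15, limma adjusted p = 0.303), and without hCNR1-/- replicate 4 it was -0.90 (SE 0.52, adjusted p = 0.275). The exact two-sided permutation p was 0.143 over 70 assignments of the 4 and 4 arrays. The other Hmox1 probe gave 2.22, 3.36, 3.29 and 4.58 in hCNR1+/+ and 2.57, 2.58, 2.13 and 2.50 in hCNR1-/-, with a log2 fold change of -0.92 (SE 0.43, adjusted p = 0.234). Both probes thus ranked hCNR1+/+ replicate 4 highest. Without that array the log2 fold change of the brighter probe was -0.43 (SE 0.32, adjusted p = 0.50).

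Kupffer cells, the macrophages of the liver, also express Hmox1, and 7 of their markers were well above background on all 8 arrays, although the study describes the preparations as free of inflammatory cells. Of 15 Kupffer cell markers, 12 were tested, and all 12 had a log2 fold change below 0, with a median of -0.98. Over all tested genes 56.6% lay above 0. Marco, a scavenger receptor, fell by 2.41 on the log2 scale (adjusted p = 0.0336) and Ctss, the lysosomal protease cathepsin S, fell by 1.89 (adjusted p = 0.0124). These 2 of the 12 were called lower, beside 1.30% of all tested genes. Without hCNR1-/- replicate 4 the count called lower was 5 of 12, beside 2.89% of all tested genes. Under the other settings Marco and Ctss stayed below 0, with Marco called in 18 of 31 and Ctss in 23 of 29 in which they were tested. Marco ranged from -2.96 to -1.78, and Ctss from -2.45 to -0.60, the latter value under normexp background correction. The Ctss probe was well above background on 6 arrays. The mean log2 signal of the 12 markers was 1.03, 1.52, 1.32 and 2.22 on hCNR1+/+ replicates 1 to 4 and -0.05 to 0.72 on the hCNR1-/- arrays. The summed linear level, in which bright probes such as that of Cd68 weigh most, was 93.5, 90.5, 87.0 and 172 times the 75th percentile on hCNR1+/+ replicates 1 to 4, and 52.3 to 71.3 times on the hCNR1-/- arrays. The array with the highest Hmox1 signal, hCNR1+/+ replicate 4, had the highest mean of Kupffer cell markers, and also the highest of hepatocyte (8.69), sinusoidal endothelial cell (1.31) and cholangiocyte (0.49) markers. It was the highest of the 8 arrays in 21.9% of all tested genes and the lowest in 17.7%. Among the defining markers Clec4f was well above background on 7 arrays, and Timd4 and Cd163 on 0. Fewer such cells and less RNA per cell cannot be told apart in these samples, and their part in the Hmox1 values was not tested.

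By array profile, the genes nearest to Hmox1 among 8331 well above background on all 8 arrays were Slc2a1, Slpi and Upp1. Their root mean square differences from the centred Hmox1 profile were 0.195, 0.197 and 0.202 on the log2 scale over 8 arrays. Slc2a1, the glucose transporter GLUT1, had 5.80 to 8.24 in hCNR1+/+ and 5.37 to 6.12 in hCNR1-/-. Slpi, a secreted protease inhibitor, and Upp1, uridine phosphorylase, had their highest signals in hCNR1+/+ replicate 4, at 9.88 and 4.83. The shared peak and direction follow from choosing these genes by their profile over the same arrays. None of the 3 was called, with log2 fold changes of -1.08, -1.08 and -0.83 and adjusted p of 0.213, 0.175 and 0.389.

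G6pdx, glucose-6-phosphate dehydrogenase, which feeds NADPH to the thioredoxin and glutathione reductases, had a log2 signal of 0.65, 0.95, 1.61 and 2.68 in hCNR1+/+ and of 1.42, 1.47, 0.72 and 0.85 in hCNR1-/-. The groups overlapped, and hCNR1+/+ replicate 4 was again the highest array. The log2 fold change was -0.36 (SE 0.42, adjusted p = 0.658), and it was -0.27 (adjusted p = 0.734) without hCNR1-/- replicate 4 and 0.05 without hCNR1+/+ replicate 4. Its intronless copy G6pd2 was well above background on 1 array and was not tested.

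Nqo1 and Slc7a11 were not tested. Nqo1, a quinone reductase, had a log2 signal of 0.64 and 0.62 in hCNR1+/+ replicates 1 and 2 and of 0.73, 0.12, 0.88 and -2.81 in hCNR1-/-, and its spots on hCNR1+/+ replicates 3 and 4 carried the scanner software's outlier flag. These spots read 9.47 and 1.90 where kept. In hCNR1-/- replicate 4 the Nqo1 probe was not well above background, and no fold is given. Slc7a11, the cystine importer that supplies glutathione synthesis, passed the background flag on 1 of 4 hCNR1+/+ and 0 of 4 hCNR1-/- arrays, so no fold is given.

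The wider pathway was read from 5 lists with 79 genes that are not among the 10, of which 71 were tested. Over 8 arrays 2 were called higher in hCNR1-/-, which is 2.82%, and 0 lower, near the shares of all tested genes given above. Their median log2 fold change was 0.02. Without hCNR1-/- replicate 4, 7 of 71 were called higher, which is 9.86%, and 0 lower, beside 10% of all tested genes higher and 2.89% lower, so that the share of the lists was near that of all genes.

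Both genes called over 8 arrays handle haem products or export conjugates. Blvrb, biliverdin reductase B, had a log2 signal of 6.21, 5.95, 6.18 and 5.18 in hCNR1+/+ and of 7.27, 7.10, 7.06 and 6.70 in hCNR1-/-. All 4 hCNR1-/- arrays lay above all hCNR1+/+ arrays, and the log2 fold change was 1.15 (SE 0.27, limma adjusted p = 0.0481). Abcc2, the canalicular exporter of bilirubin and glutathione conjugates, had 2.05, 2.20, 1.97 and 2.43 in hCNR1+/+ and 3.47, 3.11, 3.45 and 3.06 in hCNR1-/-. Its groups did not overlap, replicate 4 of hCNR1-/- stayed with the others, and the log2 fold change was 1.11 (SE 0.21, adjusted p = 0.0258). Without hCNR1-/- replicate 4 the values were 1.26 for Blvrb (adjusted p = 0.0244) and 1.18 for Abcc2 (adjusted p = 0.0123). Over 31 other settings both stayed above 0, from 0.60 to 1.52 in Blvrb and from 0.55 to 1.44 in Abcc2. The call was less stable, with Blvrb called in 12 and Abcc2 in 18 of them. With all 8 arrays, neither was called with the replicate block, median scaling, normexp, z-scores, unscaled arrays or no filter. With 1 array left out in turn, Blvrb was called only without hCNR1-/- replicate 4, and Abcc2 only without that array or hCNR1+/+ replicate 4.

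Among the 9 haem and iron genes, all tested, 1 was called higher and 0 lower, with a median log2 fold change of 0.07. The lowest value was that of Alas1, the first enzyme of haem synthesis, at -0.97 (adjusted p = 0.128) with all hCNR1-/- arrays below all hCNR1+/+ arrays, and it was -0.95 (adjusted p = 0.112) without hCNR1-/- replicate 4. Of the 26 detoxification and export genes 22 were tested, and Abcc2 was the only one called, with a median of -0.14 and the lowest value in the carboxylesterase Ces1g at -1.37 (adjusted p = 0.171), which was -1.08 (adjusted p = 0.209) without hCNR1-/- replicate 4.

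Of 20 genes that control NRF2, 18 were tested and 0 were called, with a median of -0.00. They ran from -0.44 in Bach2, a repressor that competes for the same sites, to 0.53 in Sqstm1, the autophagy receptor p62 that sequesters KEAP1 (adjusted p = 0.641 and 0.189). Of 13 glutathione and thioredoxin genes, 12 were tested and 0 called, with a median of 0.30. Their extremes were Prdx1, a peroxiredoxin, at -0.40 (adjusted p = 0.670) and Gpx4, the phospholipid glutathione peroxidase, at 0.56 (adjusted p = 0.152). Of 11 NADPH supply genes, 10 were tested and 0 called, with a median of 0.33, from Rpia at -0.56 (adjusted p = 0.546) to Rpe at 1.87 (adjusted p = 0.131), both enzymes of the pentose phosphate pathway. Without hCNR1-/- replicate 4 the list medians were 0.13 for NRF2 control, 0.28 for glutathione and thioredoxin, 0.48 for NADPH supply, 0.24 for haem and iron and -0.21 for detoxification and export, beside 0.17 over all tested genes.

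The genes called higher only once hCNR1-/- replicate 4 was left out, named here after their values were seen, were Gsr, Gss, Taldo1, Slc48a1 and Osgin1. They are described as single genes, since the lists' share of calls was near that of all tested genes. Gsr, glutathione reductase, had a log2 fold change of 0.42 over 8 arrays and of 0.69 over 7 (adjusted p = 0.0290). Gss, glutathione synthetase, went from 0.56 to 0.68 (adjusted p = 0.0485). Taldo1, transaldolase of the pentose phosphate pathway, went from 0.54 to 0.81 (adjusted p = 0.0219), with hCNR1-/- replicate 4 at 7.48 below the other 7 arrays, as in Txnrd1. Slc48a1, a haem transporter, and Osgin1, an oxidative stress-induced growth inhibitor, moved little, from 0.83 to 0.84 and from 0.83 to 0.95. Gsr and Taldo1 had their lowest signal of all 8 arrays in hCNR1-/- replicate 4.

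**Figure D4:**
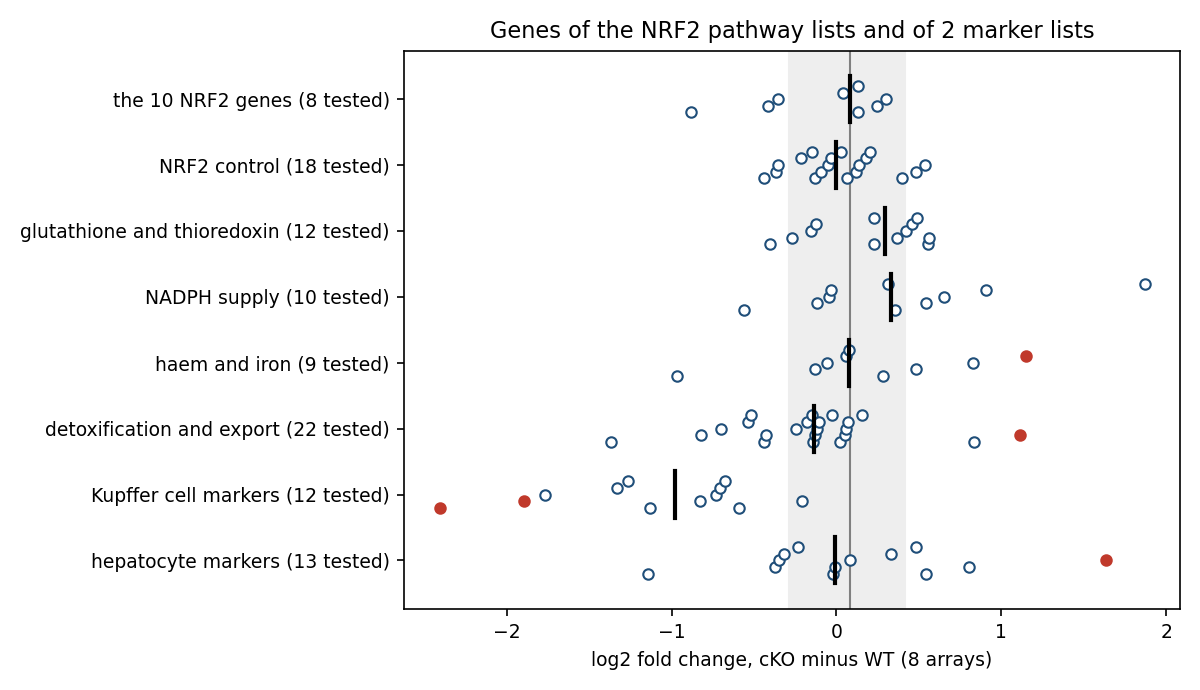
Log2 fold change, hCNR1-/- minus hCNR1+/+ over 8 arrays, of each tested gene in the NRF2 pathway lists and in the Kupffer cell and hepatocyte marker lists; filled red points had an adjusted p below 0.05, black bars are list medians, the grey line is the median of all tested genes (0.08) and the grey band their middle 50%. In the pathway lists Blvrb and Abcc2 are filled, and all 12 Kupffer cell markers lie below 0.

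The differences were recomputed under 32 other settings of scaling, background, filter, model and arrays used. Txnrd1 was called higher in 7 of 10 settings without hCNR1-/- replicate 4 and in 1 of 22 settings with it. The latter was the fit that weights arrays by their spread and gives that array a weight of 0.10. Those 7 settings called 268 to 1725 of all tested genes higher, and the array weights called 2176 of 11072. The settings without that array that did not call Txnrd1 called 2 to 398 genes higher. Hmox1 was lower in all 32 settings, from -1.44 to -0.43, and was never called by adjusted p. It passed the fold threshold in 4 of the 22 settings with hCNR1-/- replicate 4 and in 2 of the 10 without it. Where Hmox1 passed, 321 to 640 of all tested genes passed as lower. No other member was called in any setting.

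**Figure D5:**
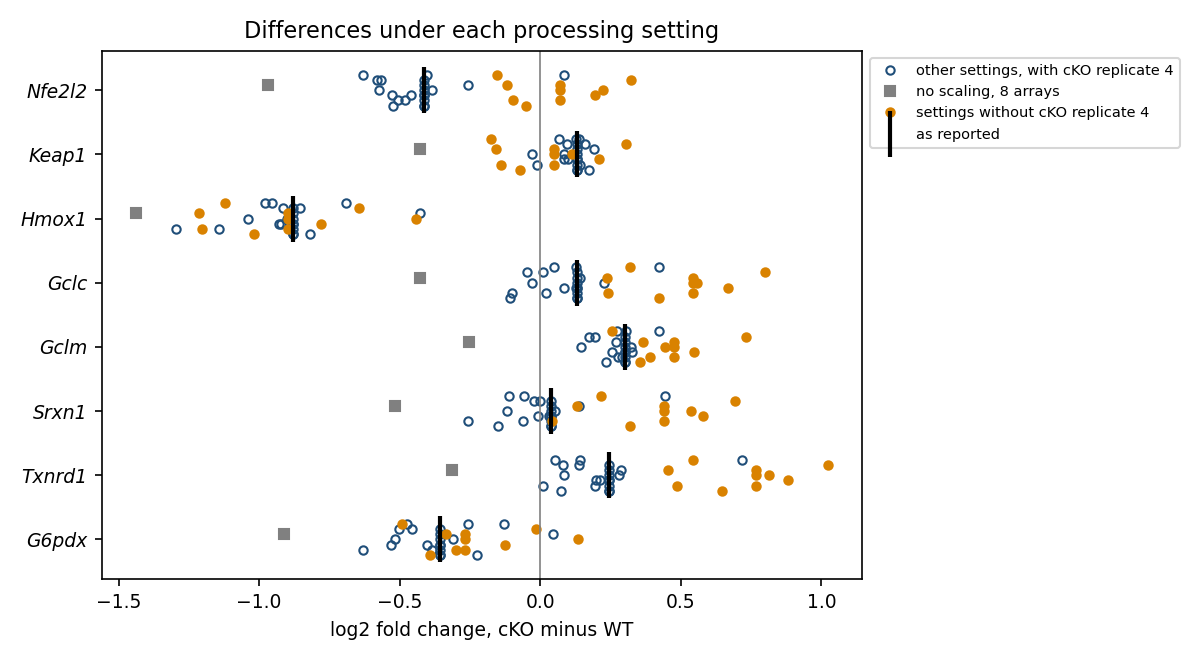
Log2 fold change, hCNR1-/- minus hCNR1+/+, of the 8 tested NRF2 pathway genes under each processing setting, with settings that keep hCNR1-/- replicate 4 as open blue points, those without it as orange points, unscaled arrays as grey squares and the reported value as a black bar. Hmox1 stays below 0 throughout, and Txnrd1 reaches 1.02 without that array.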

How the data were processed

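RNA of isolated hepatocytes (4 hCNR1+/+ and 4 hCNR1-/- samples) was labelled with Cy3 and hybridised to Agilent arrays on 1 slide. Per the file headers, Feature Extraction 12.0.3.1 made the deposited spot intensity, which is background-corrected within each array and not scaled between arrays. A score for each spot, deposited by the authors as well, differed by at most 0.005 from the z-score of log intensity computed per array, and served as an alternative. The study names a normalized z-score for its heat map. The test behind its gene calls is not given in the sources used here.

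Intensities of 59305 non-control spots were converted to log2, and each array's 75th percentile was subtracted. Outlier-flagged spots were left out and the spots of a probe averaged. Accessions were matched without versions to RefSeq symbols (GRCm38.p6), which named 28331 of 55681 probes. A gene entered the test through its brightest probe that was measured on all arrays and flagged well above background on 4 or more of the 8. Genotypes were compared two-sided in limma 3.58.1 (lmFit, eBayes; R 4.3.3), with Benjamini-Hochberg adjustment over all tested genes, and single genes also had exact permutation tests. The fit was also run on simulated data with the same noise on every array. Those data held no dim array, so they cannot speak to the effect of hCNR1-/- replicate 4. The labels do not state that each array is a separate mouse, so p-values measure the spread between these samples, which may be technical. The study's legend gives fewer samples per genotype than the 4 arrays deposited, without saying which, and the number of arrays limits the precision. Named were all 10 genes, the called and the most extreme genes of each pathway list, and the 3 genes nearest in profile to the member with the largest difference. Members and lists were chosen with earlier results of these data known. Alternatives covered scaling, background, filters, probes, array weights, a replicate block and arrays left out.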

Additional observations from a re-analysis of the deposited data

Results flagged for a closer look

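In 3 of 32 sets of 4 arrays examined, 1 array lay further from the others than the 95% critical value of Dixon's ratio allows, where chance gives about 1 in 20 sets. All 3 concerned hCNR1-/- replicate 4. For Txnrd1 the ratio of its gap to the whole range was 0.957, with a log2 signal of 5.39 in that array. For Nfe2l2 the ratio was 0.849, with a log2 signal of 2.47. For the mean of the lymphocyte markers it was 0.852, with a mean log2 signal of 5.30, the highest of the group. That array was also the dimmest of the 8, and the cause of these gaps was not tested.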

How the results depend on the processing

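Of 256 values (8 genes under 32 settings), 216 kept their direction and their side of the threshold, 32 changed sign and 8 newly passed the threshold, all 8 for Txnrd1. With 1 array left out, log2 fold changes ranged from -0.63 to 0.045 for G6pdx, -0.11 to 0.54 for Gclc, 0.19 to 0.48 for Gclm, -1.30 to -0.43 for Hmox1, 0.05 to 0.19 for Keap1, -0.63 to 0.070 for Nfe2l2, -0.15 to 0.44 for Srxn1 and 0.05 to 0.77 for Txnrd1, and the counts of members called from 0 to 1, with Txnrd1 called without hCNR1-/- replicate 4 and Hmox1 passing the fold threshold without hCNR1+/+ replicate 1. Quantile normalization gave -0.10 for Gclc, -0.011 for Keap1 and -0.26 for Srxn1, median scaling -0.0068 and normexp -0.058 for Srxn1, and the percentile over bright probes, where the median over all genes was -0.08, -0.0296 for Gclc, -0.0299 for Keap1 and -0.12 for Srxn1. Unscaled intensities, whose median over all genes was -0.47, gave -0.43 for Gclc, -0.25 for Gclm, -0.43 for Keap1, -0.52 for Srxn1 and -0.31 for Txnrd1, of which all but Srxn1 lay above that median. By the fold threshold, 1 member (Hmox1) was called lower under quantile normalization, the bright-probe percentile and no scaling, and also under quantile normalization and no scaling without hCNR1-/- replicate 4. Array weights called 1 member higher (Txnrd1, 0.72), beside 2176 of all 11072 tested genes, and gave 0.085 for Nfe2l2. Settings chosen after seeing the data combined choices with hCNR1-/- replicate 4 left out, and 1 member, Txnrd1, was called higher with both replicate 4 arrays left out (0.81), median scaling (1.02, past the fold threshold as well, where the median over all genes was 0.43), the bright-probe percentile (0.54), normexp (0.88), and the stricter filter or flagged spots kept (0.77 in both), but not under quantile normalization, no scaling or z-scores. There Nfe2l2 was 0.22 with both replicate 4 arrays left out, 0.32 under median scaling, 0.19 under normexp and 0.070 under the stricter filter or with flagged spots kept, G6pdx was 0.13 with both left out, and Keap1 was -0.16 under quantile normalization, -0.17 under the bright-probe percentile, -0.072 unscaled and -0.14 in z-scores. The cause of these shifts was not tested. With a replicate block, Hmox1 was -0.88 (adjusted p = 0.285), 0 members were called, and of all genes 0 were lower and 0 higher by adjusted p (397 and 538 by the fold threshold), so that Blvrb, Abcc2 (adjusted p = 0.0828 and 0.0934), Marco and Ctss (0.0908 and 0.0677) lost their calls. With 1 array left out, adjusted p reached 0.128 for Blvrb, 0.108 for Abcc2, 0.0995 for Marco and 0.0676 for Ctss. Same-numbered arrays shared only a slide column, and their deviations correlated at -0.16 to 0.21. hCNR1+/+ arrays sat in slide row 1 and hCNR1-/- arrays in row 2, so row and genotype cannot be told apart.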
